A study of Mus musculus with 45 samples.

Results

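Serplulimab alone was compared with vehicle in the T2215 experiment, in 6 of the 45 tumours of the series: all 3 tumours labelled vehicle and all 3 labelled serplulimab, chosen by treatment label alone. Serplulimab is a humanised antibody against human PD-1. All mice, controls included, were BALB/c HuGEMM animals whose PD-1 and TIGIT genes carry human knock-ins. All bore subcutaneous CT26 tumours, a mouse colon carcinoma line from the same strain. Vehicle mice received saline. Serplulimab mice received 10 mg/kg into the peritoneum 2 times a week from day 8, when tumours measured 90 to 100 mm3. Total RNA of each whole tumour was sequenced, so tumour cells, immune infiltrate and neighbouring tissue were read together, and fewer cells of a type and less RNA per cell cannot be told apart. The sources used here do not give the animals' ages or the day of collection. No label says that each sample came from its own mouse, so p-values measure only the spread between these samples, which may be technical. Epithelial marks varied: among the 6 tumours Krt20, an intestinal keratin, lay between 33.7 and 119 FPKM, a fragment count scaled to transcript length and library size, while Epcam, an epithelial adhesion molecule, lay between 0.0248 and 9.42 FPKM.

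PD-1 is an inhibitory receptor on activated T cells. When it binds its ligands PD-L1 (Cd274) or PD-L2 (Pdcd1lg2), it recruits phosphatases that dampen signals from the T cell receptor and CD28. T cells that are active in a tumour release interferon gamma, which raises antigen presentation genes, the chemokines Cxcl9 and Cxcl10 and PD-L1 itself in the cells around them. CT26 is widely used in studies of PD-1 antibodies because its tumours hold T cells.

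The serplulimab tumours did not form a group. Tumour 1 was rich in skeletal muscle transcripts and poor in T cell and interferon gamma response genes, tumour 2 was poor in T cell, interferon gamma response and MHC genes but close to the vehicle tumours over all genes, and tumour 3 held more T cell, cytotoxic and MHC class II transcripts than any vehicle tumour. Over all tested genes the vehicle tumours correlated with each other at Pearson r 0.974 to 0.987. Tumour 2 correlated with them at 0.964 to 0.988, tumour 3 at 0.947 to 0.956 and tumour 1 at 0.894 to 0.911. The serplulimab tumours correlated with each other at 0.893 to 0.931, lower than the vehicle tumours did. These correlations run across genes, which are not independent replicates. With limma, no gene of 14914 passed an adjusted p of 0.05 (0.0%). The smallest adjusted p reached was 0.387. An unadjusted p under 0.05 was seen for 1842 genes, 384 higher and 1458 lower with serplulimab.

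A pair of libraries stood apart before any gene was compared. Tumour 1 spent 4.46% of its summed FPKM on the skeletal muscle list, against 0.0775% to 0.149% in the other 26 tumours of T2215. Tumour 3 had the highest summed FPKM, 911201 against 678636 to 773865 in the others, and its values fell with transcript length. Relative to the vehicle mean its median log2 level was 0.37 in the quintile of genes with the shortest transcripts (129 to 1606 nt), 0.14, -0.07 and -0.25 in the middle quintiles, and -0.52 in the longest (4977 nt and over). Shortest minus longest came to 0.89 in tumour 3 and to between -0.19 and 0.16 in the other 26 tumours. For most lists, counts within tumour 3 are therefore given below also after each library was centred on its median within each length quintile, and with FPKM rescaled to the same sum outside the muscle list, alternatives chosen after the data were seen.

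**Figure D1:**
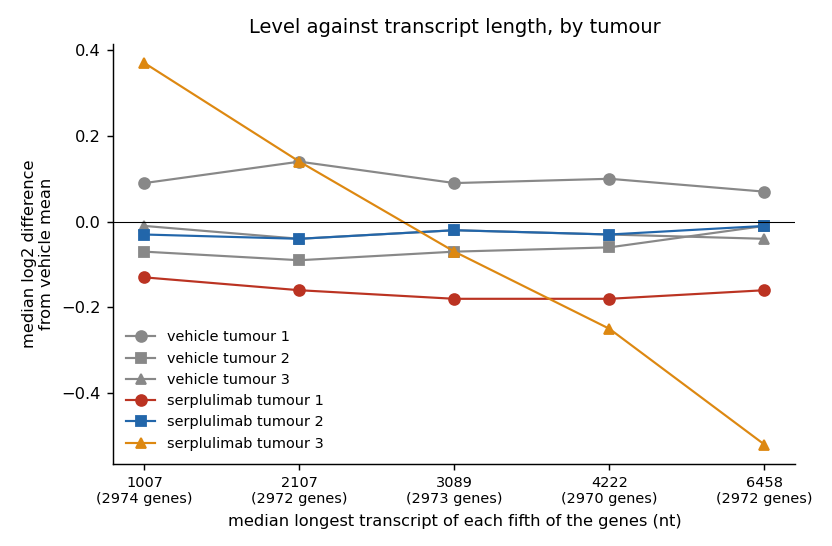
Median log2 difference from the vehicle mean (y axis, a vehicle tumour being set against the other 2) for genes in 5 bins of transcript length (x axis, median length of each bin in nucleotides), 1 line per tumour. Serplulimab tumour 3 runs from 0.37 at the short end to -0.52 at the long end, while the other 5 lines stay nearly level.

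Skeletal muscle genes gave the largest excesses of tumour 1. Muscle contracts when calcium binds troponin on the actin thin filament and lets the myosin thick filament pull, the Z-disc anchors both filaments, and creatine kinase and glycogen breakdown supply ATP. Of the 73 muscle genes, tumour 1 was the highest of the 6 tumours for 68 and the highest of all 27 T2215 tumours for 65. It reached 0.5 FPKM in 65 of them, 100 FPKM in 28 and 1000 FPKM in 11, and 41 reached 0.5 FPKM in tumour 1 and in none of the other 5. The filter on low values passed 42 of the 73, and 0 of those 42 passed the test.

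Acta1, the actin of skeletal muscle thin filaments (chr8:123891769-123894751, minus strand, GRCm38), stood at 0.34, 0.195 and 0.203 FPKM in vehicle tumours 1 to 3 and at 5350, 0.186 and 0.412 FPKM in serplulimab tumours 1 to 3. Tumour 1 alone was high, and the other serplulimab tumours overlapped the vehicle tumours. The log2 difference of the group means was 4.33 (SE 2.28, limma adjusted p 0.429). Ckm, the muscle creatine kinase (chr7:19404776-19422841, plus strand), behaved alike, at 0.41, 0.192 and 0.277 FPKM with vehicle and at 4030, 0.138 and 0.414 FPKM with serplulimab (log2 difference 4.08, SE 2.11, limma adjusted p 0.425). A single tumour made both differences: without tumour 1 that of Ckm was -0.05.

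Among thick filament genes, the summed FPKM of the 14 members was 1.83 to 3.94 in the vehicle tumours, 6000 in tumour 1, 2.79 in tumour 2 and 3.31 in tumour 3. Fast-fibre myosin made most of it. Myh4, the heavy chain of the fastest fibres, reached 1340 FPKM in tumour 1 and at most 0.0378 FPKM in the other 5. Myh1 and Myh2, the heavy chains of other fast fibres, reached 21.9 and 6.4 FPKM, and Myh7, that of slow fibres, 0.0795 FPKM. The fast light chains Mylpf and Myl1 reached 2220 and 1910 FPKM, with at most 2.41 and 1.18 FPKM in the other 5 tumours (Mylpf log2 difference 3.45, SE 1.59, limma adjusted p 0.395). The slow light chains Myl2 and Myl3 stayed at 0.295 and 0.139 FPKM in tumour 1, and the embryonic and perinatal heavy chains Myh3 and Myh8 at 0.0921 and 0.13 FPKM. Mybpc2, the fast myosin-binding protein, stood at 388 FPKM.

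Thin filament genes followed the same fast-fibre order. The fast troponins Tnnc2, Tnnt3 and Tnni2 reached 2730, 2330 and 2100 FPKM in tumour 1, where slow Tnnt1 stood at 3.37, slow Tnni1 at 0.872 and slow Tnnc1 at 1.76 FPKM. For Tnnt3 the vehicle tumours lay at 0.227, 0.291 and 0.307 FPKM and serplulimab tumours 2 and 3 at 0.324 and 0.316 FPKM (log2 difference 3.91, SE 1.94, limma adjusted p 0.409). Outside tumour 1, all these Tnnt3 values lay under the 0.5 FPKM taken here as expressed. Tnnt3 was 1 of 7 muscle genes of the 42 tested whose serplulimab tumours all lay above the vehicle tumours. Those 7 cannot be set against the 2.21% of all tested genes, because tumour 1 alone lay above in 40 of the 42. Tumour 2 lay above in 10 of the 42 and tumour 3 in 22, where 21.2% and 31.4% of all tested genes did. Tropomyosin genes, which CT26 tumours express without muscle, differed less: Tpm1 stood at 240 to 268 FPKM with vehicle and at 1940, 252 and 286 FPKM with serplulimab. Tpm3 went the other way, at 239, 191 and 213 FPKM against 156, 192 and 134 FPKM.

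For Z-disc genes, Actn3, the alpha-actinin of fast fibres, reached 478 FPKM and Tcap, which caps titin, 382 FPKM, with at most 0.112 FPKM of either in the other 5 tumours. Ttn (titin) stood at 18.8 FPKM and Neb (nebulin) at 132 FPKM. Cryab, a small heat shock protein of the Z-disc that other cells also make, stood at 11.8, 26.1 and 24.6 FPKM with vehicle and at 155, 29.6 and 40.2 FPKM with serplulimab, without overlap. The role's summed FPKM was 14.3 to 28.5 with vehicle and 1850, 32.1 and 43.6 with serplulimab.

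Calcium handling and energy genes completed the pattern. Pvalb, the calcium buffer of fast fibres, reached 1530 FPKM in tumour 1 and at most 0.103 FPKM in the others (log2 difference 3.76, SE 1.84, limma adjusted p 0.407). Atp2a1, the calcium pump of fast fibres, reached 1470 FPKM against at most 0.283 (log2 difference 3.57, SE 1.89, limma adjusted p 0.43), while Atp2a2, the pump of slow, cardiac and non-muscle cells, was lower there (79.8 FPKM) than in any vehicle tumour (98.6 to 104 FPKM). Pygm, the muscle glycogen phosphorylase, stood at 520 FPKM, Pgam2, a muscle glycolytic enzyme, at 360 FPKM and Mb (myoglobin), which stores oxygen in oxidative fibres, at 30.5 FPKM. Cox7a1, a respiratory subunit of muscle, stood at 8.47, 11.7 and 11.3 FPKM with vehicle and at 75.3, 15.7 and 21.8 FPKM with serplulimab, without overlap (log2 difference 1.47, SE 0.34, limma adjusted p 0.387).

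Regulators of muscle formation were low beside the contractile genes. Myf6, the regulator kept on in mature fibres, stood at 10.9 FPKM in tumour 1, Myod1 at 2.83 and Myog at 1.95 FPKM. The satellite cell genes Pax7 and Myf5 stood at 0.0737 and 0.123 FPKM, under the 0.5 FPKM taken here as expressed. In the other 5 tumours these 5 genes lay at or below 0.0111 FPKM.

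Heart and smooth muscle markers did not share the size of the excess. Myh6 and Nppa, which define heart muscle, stood at 0.109 and 0.0471 FPKM in tumour 1, and Tnni3 at 0.178 FPKM, under its 1.26 FPKM in tumour 3. Tnnt2, also a cardiac troponin, stood at 1.77, 4.2 and 3.24 FPKM with vehicle and at 7.7, 2.87 and 2.64 FPKM with serplulimab. Smooth muscle Myh11 stood at 1.2, 0.649 and 0.207 FPKM against 5.32, 0.347 and 0.715 FPKM, and Acta2, the actin of smooth muscle and activated fibroblasts, at 24.5, 15.5 and 7.52 FPKM against 90.8, 16 and 27.2 FPKM.

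**Figure D2:**
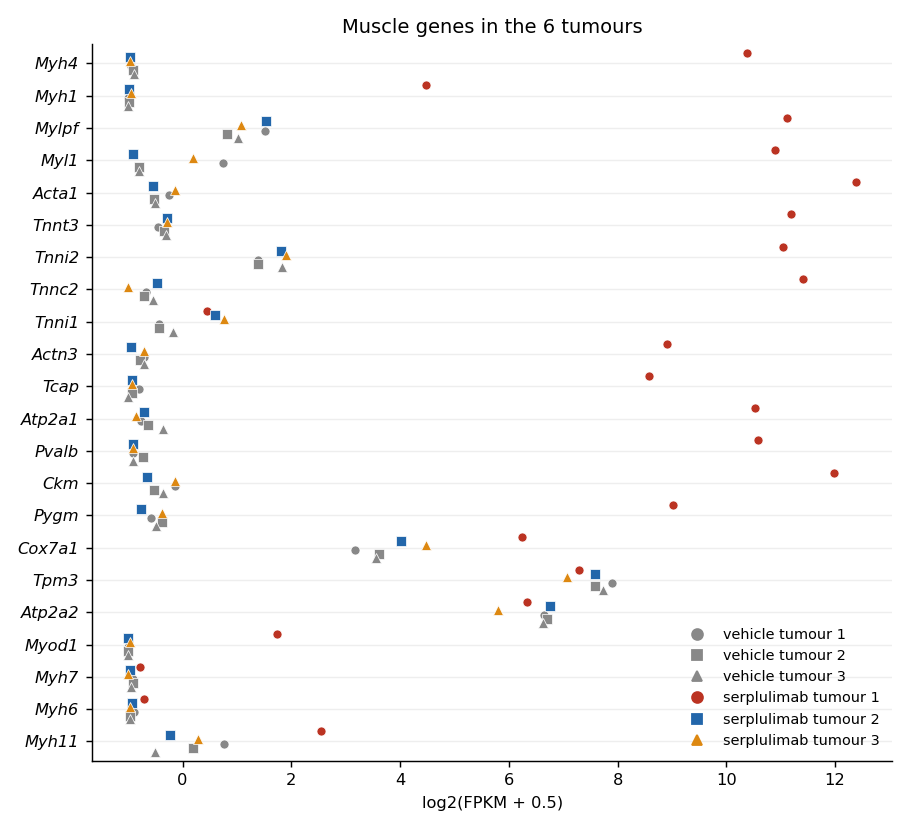
Level of 22 muscle genes as log2(FPKM + 0.5) (x axis) in the 3 vehicle tumours (grey) and the 3 serplulimab tumours (coloured), 1 point per tumour. Serplulimab tumour 1 stands far to the right for fast-fibre genes such as Acta1 (5350 FPKM) and Myh4 (1340 FPKM) and near the others for the slow myosin Myh7 and the cardiac myosin Myh6.

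The promoters of 3 of the muscle genes most in excess are shown because they carry an E box, the CAGCTG element that myogenic factors such as MyoD bind. Each sequence is the 250 bases before the RefSeq start in GRCm38.p6, read 5′ to 3′ on the gene's strand, with the element in capitals. They come from chr7:19410844-19411093 (Ckm, plus strand), chr8:123894776-123895025 (Acta1, minus strand) and chr7:127211358-127211607 (Mylpf, plus strand).
Ckm: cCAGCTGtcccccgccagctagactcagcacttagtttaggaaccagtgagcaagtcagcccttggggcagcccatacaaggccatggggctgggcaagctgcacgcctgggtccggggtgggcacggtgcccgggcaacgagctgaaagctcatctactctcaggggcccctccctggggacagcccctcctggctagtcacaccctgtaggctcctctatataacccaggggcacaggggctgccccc
Acta1: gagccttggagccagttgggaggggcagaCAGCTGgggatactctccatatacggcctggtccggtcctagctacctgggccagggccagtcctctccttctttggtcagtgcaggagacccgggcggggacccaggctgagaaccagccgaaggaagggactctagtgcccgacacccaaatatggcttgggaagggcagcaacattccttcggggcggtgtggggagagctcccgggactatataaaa
Mylpf: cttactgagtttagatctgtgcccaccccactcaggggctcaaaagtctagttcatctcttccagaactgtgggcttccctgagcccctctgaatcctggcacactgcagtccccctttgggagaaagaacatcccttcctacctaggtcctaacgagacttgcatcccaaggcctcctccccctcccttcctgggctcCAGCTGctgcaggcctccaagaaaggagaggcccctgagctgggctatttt
The element begins 249, 221 and 51 bases before the start, in that order. CAGCTG reads the same on both strands and was found in 22 of the 54 muscle list genes with a window (40.7%), in 2 of 16 interferon gamma response genes (12.5%) and in 3979 of all 27025 genes with a window (14.7%). A match describes the letters of the window and is not a measured site.

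Genes of the PD-1 pathway were mostly low in tumours 1 and 2, and some were high in tumour 3. Pdcd1, the mouse row for PD-1 (chr1:94038305-94052553, minus strand), stood at 2.91, 0.689 and 2.4 FPKM with vehicle and at 0.134, 0.237 and 4.72 FPKM with serplulimab. Tumours 1 and 2 lay below and tumour 3 above all vehicle tumours, and the log2 difference was -0.76 (SE 0.63, limma adjusted p 0.596). The tables list mouse genes, and the sources used here do not say how reads of the human knock-in alleles were counted in the Pdcd1 and Tigit rows. The ligand Cd274 stood at 19.6, 22.3 and 19 FPKM against 3.6, 11.8 and 22 FPKM (log2 difference -0.99, SE 0.86, limma adjusted p 0.607). The other ligand, Pdcd1lg2, stood at 1.91, 1.27 and 1.43 FPKM against 0.433, 0.742 and 8.04 FPKM. Its excess in tumour 3 was one of the 10 largest there, with numbered gene models, -ps pseudogenes and antigen receptor V, D and J segments left out.

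Signalling genes behind the receptor divided into T cell genes and widely expressed ones. Lck, Zap70 and Cd247, which carry the T cell receptor signal, ranked the 6 tumours as Pdcd1 did: Lck stood at 12, 5.7 and 6.98 FPKM with vehicle and at 1.58, 2.67 and 13.5 FPKM with serplulimab. Zap70 stood at 4.19, 1.47 and 2.91 FPKM against 0.3, 0.494 and 6.38 FPKM. Ptpn11, the widely expressed phosphatase recruited by PD-1, stood at 43.7, 39 and 41.3 FPKM against 34.7, 44.4 and 25.5 FPKM. Cd80, a PD-L1 partner on antigen-presenting cells, ranged from 5.56 to 8.27 FPKM with vehicle and from 6.96 to 10.1 FPKM with serplulimab. Of the 11 tested genes of the list, 10 lay below all vehicle tumours in tumour 1 and 8 in tumour 2, and 5 lay above them in tumour 3 (8 after centring by length, 3 with FPKM rescaled outside the muscle list). Over all tested genes the shares were 50.3%, 29.9% and 31.4% (36.2% centred by length, 17.0% rescaled). None of the 11 passed the test, and in none did the groups separate, as they did upward for 2.21% and downward for 6.52% of all tested genes.

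Tigit stood at 6.83, 14.5 and 14.1 FPKM with vehicle and at 4.86, 16.4 and 11 FPKM with serplulimab. Its order across tumours differed from that of Cd3e and Pdcd1. Its ligand Pvr (CD155) stood at 31.6, 74.6 and 62.6 FPKM against 43.9, 70.8 and 41.8 FPKM. Cd226, the activating receptor for the same ligands, stood at 1.38, 0.532 and 0.69 FPKM against 0.865, 0.0848 and 1.45 FPKM.

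T cell genes were low in tumours 1 and 2 and high in tumour 3. Cd3e, a subunit of the T cell receptor complex, stood at 5.82, 1.7 and 4.02 FPKM with vehicle and at 0.212, 0.551 and 8.24 FPKM with serplulimab (log2 difference -1.09, SE 0.75, limma adjusted p 0.525). Cd8a, the coreceptor of cytotoxic T cells (chr6:71373427-71379173, plus strand), stood at 8.29, 1.95 and 5.84 FPKM against 0.0909, 0.433 and 11.9 FPKM (log2 difference -1.44, SE 0.95, limma adjusted p 0.504). Tumours 1 and 2 were each below, and tumour 3 above, every vehicle tumour for both genes. Cd4, the helper T cell coreceptor, stood at 2.76, 1.33 and 1 FPKM against 0.452, 0.24 and 1.93 FPKM, and Foxp3, the regulatory T cell factor, at 0.929, 0.443 and 0.3 FPKM against 0.278, 0.172 and 0.559 FPKM. The constant region Trbc1 stood at 16.3, 10.1 and 12.5 FPKM against 1.77, 3.05 and 54.5 FPKM.

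Of the 20 tested T cell identity genes, 19 lay below all vehicle tumours in tumour 1 and 20 in tumour 2, where 50.3% and 29.9% of all tested genes did. In tumour 3, 15 of the 20 lay above all vehicle tumours, against 31.4% of all tested genes, 17 did after centring by length (36.2% of all genes) and 12 with FPKM rescaled outside the muscle list (17.0%). The list's score, the mean log2(FPKM + 0.5) of its tested members, was 2.73, 1.47 and 2.13 with vehicle and 0.39, 0.38 and 3.11 with serplulimab. Among all 27 T2215 tumours these scores ranked 26th, 27th and 2nd from the top. The median log2 difference of the list was -0.82, and 0 of its 20 genes passed the test or separated the groups.

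Cytotoxic genes followed the T cells. Gzmb, the granzyme that triggers death of target cells, stood at 56.6, 31.8 and 51.8 FPKM with vehicle and at 3.52, 20.9 and 99.9 FPKM with serplulimab (log2 difference -1.16, SE 1.07, limma adjusted p 0.63). Prf1, the pore-forming protein that lets granzymes in, stood at 15.6, 11.9 and 21.6 FPKM against 0.914, 7.17 and 28.1 FPKM (log2 difference -1.27, SE 1.08, limma adjusted p 0.602). Ifng itself stood at 3.35, 1.99 and 1.92 FPKM against 0.0187, 0.805 and 6.7 FPKM (log2 difference -0.75, SE 0.84, limma adjusted p 0.696). The differences of Gzmb and Ifng rest on tumour 1, without which they were 0.02 and 0.1. Of the 22 tested cytotoxic genes, 18 lay below all vehicle tumours in tumour 1, 14 in tumour 2, and 20 lay above them in tumour 3 (20 after centring by length, 18 rescaled). Among all tested genes 50.3%, 29.9% and 31.4% did (36.2% centred by length, 17.0% rescaled).

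In 3 cytotoxic list members the serplulimab tumours were all above the vehicle tumours, 3 of 22 against 2.21% of all tested genes. They were Srgn, Ccl3 and Ccl4, and myeloid cells make all of them as well. Srgn, the proteoglycan that packs granule proteins, stood at 103, 124 and 110 FPKM against 248, 170 and 226 FPKM (log2 difference 0.92, SE 0.38, limma adjusted p 0.389). Ccl3 and Ccl4, inflammatory chemokines, stood at 9.31 to 12.3 and 15.3 to 20.1 FPKM with vehicle, and at 15.8 to 26.8 and 20.8 to 41.5 FPKM with serplulimab.

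Of 11 tested genes for other checkpoint receptors and ligands, 7 lay below all vehicle tumours in tumour 1 and 9 in tumour 2, and 5 lay above them in tumour 3. The shares of all tested genes were 50.3%, 29.9% and 31.4%, in that order. Other scalings were not counted for this list. Lag3, which binds MHC class II, stood at 4.34, 1.78 and 3.6 FPKM against 0.935, 0.557 and 10 FPKM, and Ctla4, which competes with CD28, at 1.72, 0.703 and 0.998 FPKM against 0.3, 0.266 and 2.44 FPKM. Havcr2 (TIM-3), which myeloid cells also carry, spread less, at 4.63, 3.97 and 4.97 FPKM against 1.89, 3.91 and 6.58 FPKM. Tnfrsf14 (HVEM), the ligand of BTLA, was the 1 gene of those 11 whose groups separated, downward as for 6.52% of all tested genes, at 11.8, 6.96 and 9.32 FPKM against 3.12, 5.27 and 3.91 FPKM (log2 difference -1.1, SE 0.37, limma adjusted p 0.387). Lef1, a factor of naive and stem-like T cells, was below all vehicle tumours in each serplulimab tumour, at 2.53, 2.79 and 3.19 FPKM against 1.26, 1.53 and 2.29 FPKM (log2 difference -0.63, SE 0.21, limma adjusted p 0.387). Of the 18 tested exhaustion and memory regulators, 1 separated the groups downward and 1 upward, beside 6.52% and 2.21% of all tested genes. That list's median log2 difference was -0.16.

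**Figure D3:**
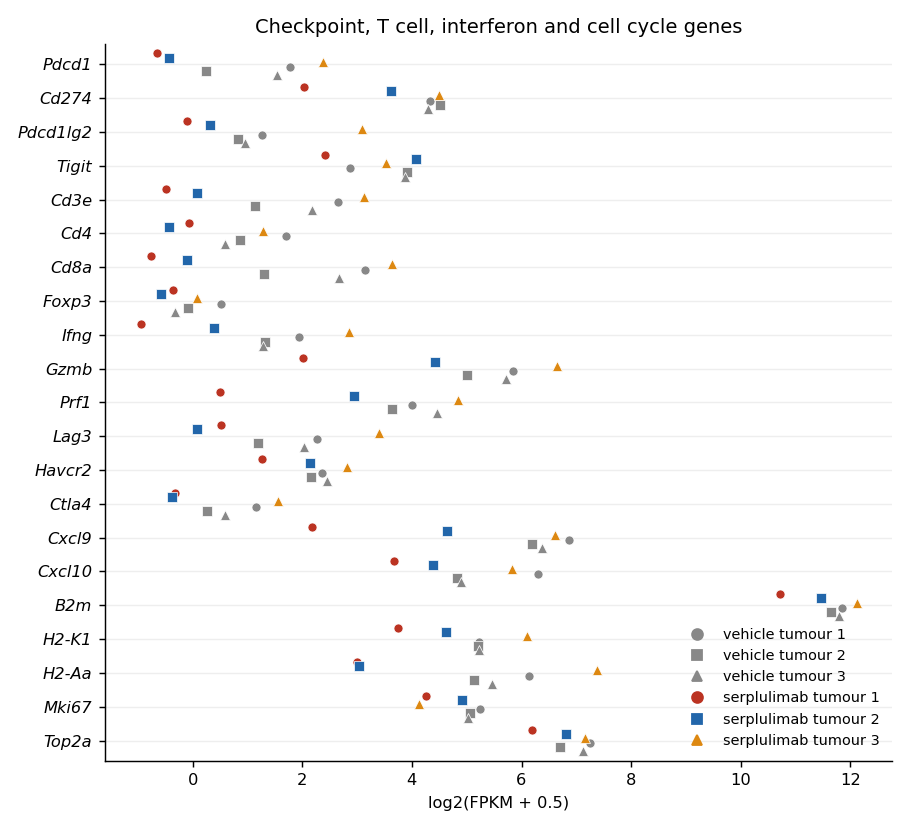
Level of 21 checkpoint, T cell, interferon, MHC and cell cycle genes as log2(FPKM + 0.5) (x axis), 1 point per tumour, vehicle in grey and serplulimab in colour. For Cd8a, Gzmb and Ifng serplulimab tumours 1 and 2 lie left of the vehicle tumours and tumour 3 right of them, whereas Tigit keeps another order.

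The interferon gamma response was low in tumours 1 and 2 and mostly within or above the vehicle range in tumour 3. Cxcl9, the chemokine that draws CXCR3-bearing T cells (chr5:92321347-92328079, minus strand), stood at 116, 72.2 and 82.5 FPKM with vehicle and at 4.02, 24.4 and 96.9 FPKM with serplulimab (log2 difference -2.0, SE 1.02, limma adjusted p 0.419). Cxcl10, its relative, stood at 78.6, 27.9 and 29.1 FPKM against 12.3, 20.4 and 56.3 FPKM. Gbp2, a guanylate-binding protein that attacks intracellular microbes, stood at 293, 188 and 211 FPKM against 20, 111 and 321 FPKM (log2 difference -1.33, SE 0.92, limma adjusted p 0.523). Tumour 1 held less than tumour 2 for each of these 3 genes.

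All 25 genes of the list lay below all vehicle tumours in tumour 1 and 24 did in tumour 2, against 50.3% and 29.9% of all tested genes. In tumour 3, 10 lay above and 2 below, after centring by length 18 lay above and 0 below, and with FPKM rescaled outside the muscle list 3 lay above and 3 below, so the position of tumour 3 depended on the scaling. Of all tested genes, 31.4% lay above and 42.1% below there (36.2% and 33.4% by length, 17.0% and 57.3% rescaled). The list's median log2 difference was -0.99 and 0 of 25 passed the test. The groups separated for 2 of the 25, Gbp7 and Gbp9, both lower with serplulimab, beside 6.52% of all tested genes. Gbp7 stood at 100, 50.4 and 55.3 FPKM against 8.73, 30.5 and 44.4 FPKM (log2 difference -1.49, SE 0.7, limma adjusted p 0.399). The guanylate-binding proteins are related copies, and whether reads were shared among their rows was not tested.

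The promoters of a pair of the guanylate-binding protein genes are shown because they hold the core GAAANNGAAA of the element bound by interferon-activated factors, here on the opposite strand, in capitals. They are the 250 bases before the RefSeq start in GRCm38.p6 at chr3:142620413-142620662 (Gbp2) and chr3:142496684-142496933 (Gbp5), both on the plus strand.
Gbp2: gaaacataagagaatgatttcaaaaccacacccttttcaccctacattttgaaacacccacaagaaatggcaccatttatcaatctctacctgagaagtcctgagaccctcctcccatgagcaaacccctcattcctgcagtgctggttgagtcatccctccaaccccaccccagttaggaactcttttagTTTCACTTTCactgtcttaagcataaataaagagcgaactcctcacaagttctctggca
Gbp5: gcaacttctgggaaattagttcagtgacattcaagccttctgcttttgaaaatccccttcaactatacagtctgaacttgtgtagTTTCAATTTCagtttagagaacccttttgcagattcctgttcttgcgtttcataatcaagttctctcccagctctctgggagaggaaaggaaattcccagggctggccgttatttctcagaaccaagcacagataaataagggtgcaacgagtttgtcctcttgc
The core, searched on both strands, begins 59 and 165 bases before the start, and Gbp5 stood at 41.1, 23.1 and 26.8 FPKM with vehicle and at 4.65, 13 and 40.5 FPKM with serplulimab. It was found in 9 of 16 interferon gamma response genes with a window (56.2%), in 0 of 54 muscle genes (0%) and in 936 of all 27025 genes (3.46%). The absence of a match says only that these letters are not in the window.

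Antigen presentation genes followed the same order. B2m, the invariant chain of MHC class I, stood at 3680, 3200 and 3540 FPKM with vehicle and at 1680, 2840 and 4430 FPKM with serplulimab. H2-K1, a classical class I heavy chain, stood at 36.7, 36.2 and 36.8 FPKM against 13, 24.2 and 68.5 FPKM. Of 14 tested class I genes, 13 lay below all vehicle tumours in tumour 1 and 14 in tumour 2, and 11 lay above them in tumour 3 (12 after centring by length, 7 rescaled). In MHC class II, which antigen-presenting cells use for helper T cells, all 10 genes lay below in tumours 1 and 2, and 9 lay above in tumour 3 (9 after centring by length, 7 rescaled). Of all tested genes, 50.3% and 29.9% lay below in tumours 1 and 2, and 31.4% above in tumour 3 (36.2% by length, 17.0% rescaled). H2-Aa stood at 70, 34.8 and 43.4 FPKM against 7.53, 7.67 and 166 FPKM (log2 difference -1.11, SE 1.06, limma adjusted p 0.647). Cd74, the chain that loads class II, stood at 958, 445 and 639 FPKM against 99.5, 137 and 1910 FPKM (log2 difference -1.12, SE 1.02, limma adjusted p 0.626). Neither the class I list nor the class II list held a gene that passed the test, and Erap1, a class I peptide trimmer, was the 1 member of either whose groups separated, downward as for 6.52% of all tested genes.

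Fat, red cell and matrix genes also differed between the tumours, and where those cells lay was not tested. Adipocyte genes were high in tumours 1 and 3: Adipoq, the fat hormone adiponectin, stood at 22, 0.378 and 1.64 FPKM with vehicle and at 123, 0.217 and 51.6 FPKM with serplulimab. Fabp4, the fatty acid carrier of fat cells, stood at 326, 90.1 and 88.4 FPKM against 1330, 71.9 and 711 FPKM. Of 11 adipocyte genes, 11 lay above all vehicle tumours in tumour 1 and 10 in tumour 3 (10 by length, 7 rescaled), and 6 lay below in tumour 2. All tested genes did so in 26.6%, 31.4% (36.2% by length, 17.0% rescaled) and 29.9%. The list's score was 4.42, 1.28 and 1.94 with vehicle and 6.49, 1.19 and 5.02 with serplulimab, 2nd and 3rd of 27 for tumours 1 and 3. The part of fat in the other differences was not tested.

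Red cell and matrix genes had the same high tumours. Hba-a2, an alpha globin, stood at 180, 380 and 142 FPKM with vehicle and at 1530, 102 and 532 FPKM with serplulimab. All 5 tested red cell genes lay above all vehicle tumours in tumours 1 and 3 and below them in tumour 2. In tumour 3 only 1 of the 5 lay above after centring by length, and 4 with FPKM rescaled outside the muscle list. Col3a1, a fibrillar collagen, stood at 483, 501 and 95.9 FPKM against 2630, 67.9 and 691 FPKM. Of 18 fibroblast and matrix genes, 16 lay above in tumour 1, 10 in tumour 3 (13 by length, 7 rescaled) and 1 in tumour 2. Of all tested genes, 26.6%, 31.4% (36.2% by length, 17.0% rescaled) and 21.2% lay above in those tumours, and 29.9% below in tumour 2. By list score, tumour 2 was the lowest of the 6 for fat, red cell, matrix and T cell genes alike.

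Macrophage genes divided. The 22 tested members had a median log2 difference of 0.11, and 0 separated the groups. Lyz2, the lysozyme of myeloid cells, stood at 1260, 1240 and 1760 FPKM with vehicle and at 1820, 1610 and 2520 FPKM with serplulimab, while C1qa, a complement chain of tissue macrophages, stood at 620, 347 and 451 FPKM against 295, 286 and 939 FPKM. Retnla, a secreted product of alternatively activated macrophages and of fat tissue (chr16:48842551-48844461, plus strand), stood at 3.64, 1.66 and 0.454 FPKM against 440, 1.23 and 223 FPKM (log2 difference 4.76, SE 1.9, limma adjusted p 0.389). Its high tumours, serplulimab 1 and 3, had adipocyte list scores of 6.49 and 5.02. Vehicle tumour 1 scored 4.42 and held Retnla at 3.64 FPKM. The part of fat in Retnla was not tested. Without serplulimab tumour 2 Retnla passed the test, with a log2 difference of 7.26. Arg1, the arginase of the same macrophage state, stood at 17.4, 82.6 and 88 FPKM against 191, 129 and 75.8 FPKM. Neutrophil S100a9 stood at 11.1, 79.8 and 17.6 FPKM against 118, 42.8 and 37.3 FPKM.

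Of 13 tested T cell chemokine and receptor genes, 7 lay below all vehicle tumours in tumour 1 and 11 in tumour 2. In tumour 3, 7 lay above them (8 after centring by length, 5 rescaled). Of all tested genes 50.3%, 29.9% and 31.4% did so (36.2% by length, 17.0% rescaled). Single chemokines had several patterns. Ccl5, made by T and natural killer cells, stood at 63.7, 45.5 and 25.9 FPKM against 14.3, 11.8 and 173 FPKM. Xcl1, which draws cross-presenting dendritic cells, stood at 9.38, 4.51 and 6.94 FPKM against 0.656, 1.35 and 8.32 FPKM (log2 difference -1.43, SE 0.66, limma adjusted p 0.397). Ccl21a, the lymphoid chemokine for CCR7-bearing cells, was found in serplulimab tumours 1 and 3 at 9.17 and 8.82 FPKM. It stood at 0.279 FPKM in vehicle tumour 1 and at no more than 1.27e-06 FPKM in the other 3 tumours. Its log2 difference was 2.62 (SE 0.98, limma adjusted p 0.387). Whether reads were shared between this row and related rows was not tested.

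Cell cycle genes were lower in tumour 1. All 24 tested members lay below all vehicle tumours there, against 50.3% of all tested genes. In tumour 2, 4 did, against 29.9%, and in tumour 3, 11 did, against 42.1%. Centred on the median, centred by length and rescaled outside muscle, these counts were 1, 1 and 6 in tumour 2. Of all tested genes 23.5%, 23.5% and 37.1% lay below there. In tumour 3 the counts were 7, 13 and 19 (29.2%, 54.2% and 79.2% of the list). All tested genes lay below there in 27.6%, 33.4% and 57.3%. Mki67, the proliferation marker Ki-67, separated the groups, at 37.5, 32.9 and 32.1 FPKM against 18.6, 29.8 and 16.9 FPKM (log2 difference -0.68, SE 0.24, limma adjusted p 0.387), but has a long transcript, the class in which tumour 3 was low. Top2a, the mitotic topoisomerase, stood at 152, 103 and 139 FPKM against 72.3, 112 and 143 FPKM. Over the list, 3 of 24 genes separated the groups downward (Mki67, Ccna2 and Bub1b), beside 6.52% of all tested genes, and the median log2 difference was -0.4.

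Among hypoxia and glycolysis genes 3 of 16 separated the groups upward, beside 2.21% of all tested genes: Aldoa, Ldha and Pfkp. Aldoa, an aldolase that muscle uses heavily, stood at 665, 1160 and 995 FPKM with vehicle and at 4260, 1360 and 1220 FPKM with serplulimab (log2 difference 1.07, SE 0.37, limma adjusted p 0.387). Ldha, the lactate dehydrogenase of glycolytic cells, stood at 1110, 1550 and 1390 FPKM against 1700, 1870 and 1710 FPKM. Vehicle tumour 1 was the low sample for hypoxia targets, with Ndrg1 at 59.4 FPKM against 202 to 357 FPKM in the other 5, and without it the list's median log2 difference dropped from 0.38 to 0.06.

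**Figure D4:**
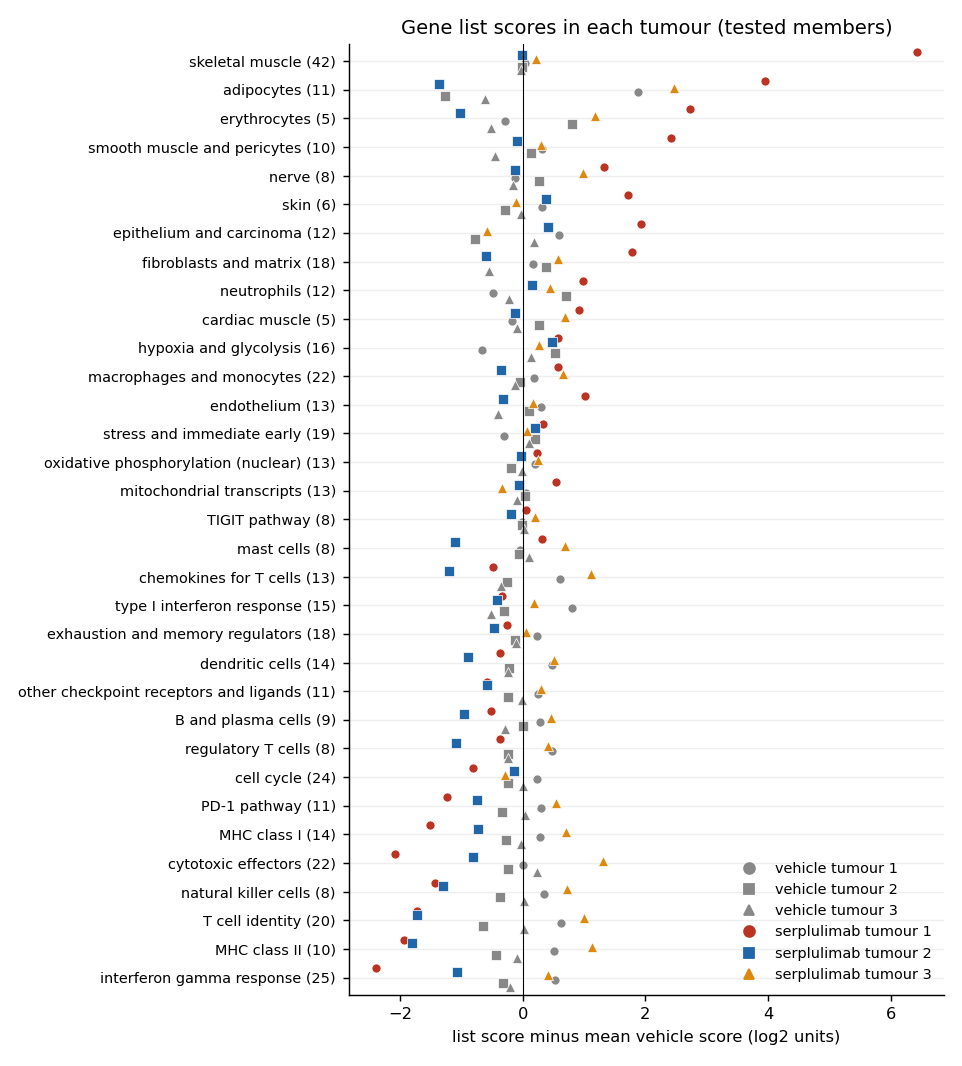
Score of 33 gene lists in each tumour, as the mean log2(FPKM + 0.5) of the tested members (their number in brackets) minus the mean vehicle score (x axis), vehicle in grey and serplulimab in colour. The range of the coloured points exceeds that of the grey ones in 28 of the 33 lists, the muscle score of tumour 1 stands at the far right, and in 0 of the 33 lists do the coloured points all lie on 1 side of the grey ones.

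Over all tested genes, 330 (2.21%) had all 3 serplulimab tumours above all 3 vehicle tumours and 973 (6.52%) had all 3 below. This split depended on the scaling: with each library centred on its median it was 736 above (4.93%) and 419 below (2.81%), and with FPKM rescaled outside the muscle list 182 (1.22%) and 1716 (11.5%). Centring within length quintiles gave 517 (3.47%), of which 194 were among the 330, and 520 (3.49%), of which 413 were among the 973. The genes above had a median longest transcript of 1865 nt and those below of 3800 nt, against 3089 nt for all tested genes. By length quintile, from short to long, the share above was 4.54%, 3.03%, 2.02%, 0.808% and 0.673%, and the share below 3.43%, 4.48%, 6.83%, 8.28% and 9.59%. The part of tumour 3's length trend in single genes was not tested beyond this centring.

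Numbered gene models, -ps pseudogenes and antigen receptor V, D and J segments were left out of the p rankings that follow. The 10 genes with the smallest p among those above were Tnni1, Prss36, Mettl23, Cox7a1, Acyp1, Cystm1, Mrpl14, Nkiras1, Atp5e and Ifi27. None passed the threshold (limma adjusted p 0.387 for all). Tnni1, the slow troponin (chr1:135779434-135810989, plus strand), stood at 0.238, 0.238 and 0.389 FPKM with vehicle and at 0.872, 1.02 and 1.19 FPKM with serplulimab (log2 difference 0.95, SE 0.22). All 3 serplulimab tumours stood above the vehicle tumours, although tumours 2 and 3 held Acta1 and Ckm at no more than 0.414 FPKM. Mettl23, a methyltransferase, stood at 11.8, 12.6 and 12.9 FPKM against 15.5, 18.2 and 19 FPKM. Mrpl14, of the mitochondrial ribosome, stood at 81.2, 78.7 and 80.7 FPKM against 103, 91.3 and 139 FPKM, and Atp5e, a subunit of ATP synthase, at 430, 331 and 392 FPKM against 541, 438 and 809 FPKM. Ifi27, an interferon-inducible protein of mitochondria, stood at 75.4, 94 and 107 FPKM against 140, 120 and 196 FPKM.

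Such short genes of respiration and protein synthesis were high in tumour 3 as families. The 45 tested Nduf genes of complex I had a median of 0.54 (log2) over the vehicle mean in tumour 3, 0.17 in tumour 1 and -0.07 in tumour 2, with a median longest transcript of 1200 nt. The 80 tested Rp genes of the cytoplasmic ribosome stood at 0.56, -0.25 and 0.24 in tumours 3, 1 and 2, and none separated the groups. Their median longest transcript was 1054 nt. All genes of the shortest length quintile, which spans both median lengths, stood at 0.37, -0.13 and -0.03 in tumours 3, 1 and 2.

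The 10 genes with the smallest p among those below, again at a limma adjusted p of 0.387, were Wipf1, Inpp5b, Cabin1, Tmed8, Ppp1r18, Aim1, Ddx5, Cep128, Kif3b and Tlk1. Wipf1, which steers actin assembly in blood cells (chr2:73429610-73529734, minus strand), stood at 34.4, 36 and 37.5 FPKM with vehicle and at 22.5, 30.3 and 23.8 FPKM with serplulimab (log2 difference -0.5, SE 0.11). Ddx5, an RNA helicase, stood at 325, 337 and 332 FPKM against 249, 290 and 231 FPKM, and Tlk1, a chromatin kinase, at 30.2, 28.8 and 28 FPKM against 18.5, 25.8 and 15.5 FPKM. In both, tumour 2 lay nearest the vehicle tumours. Of 309 tested Zfp genes, which encode zinc finger proteins, 33 had all serplulimab tumours below and 0 above, beside 6.52% and 2.21% of all tested genes. Their median longest transcript was 3738 nt, and 8.28% of all genes in that length quintile had all serplulimab tumours below. Their medians were -0.3 in tumour 1, 0.0 in tumour 2 and -0.37 in tumour 3.

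Tumour 2 decided whether the test made calls. Without it, 1395 genes passed (261 higher and 1134 lower, smallest limma adjusted p 0.000301), the 20 genes just named among them. That comparison is of 3 vehicle tumours with a muscle-rich tumour and a tumour with a length trend. The genes called higher had a median longest transcript of 1925 nt and those called lower of 4747 nt. Centring within length quintiles lowered the count to 126 (71 higher and 55 lower) and centring on the library median to 514 (306 and 208). Leaving out any other tumour gave 0 calls.

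The tumours also held excesses of their own. Tumour 1 exceeded all other 5 by more than 1 log2 unit in 879 genes, tumour 3 in 97, tumour 2 in 11, and the vehicle tumours in 25, 5 and 3. The rankings below leave out numbered gene models, -ps pseudogenes and antigen receptor V, D and J segments. The 10 largest of tumour 1 were all muscle genes. Those of tumour 3 included Ighg1, an antibody heavy chain, at 5.91 FPKM against at most 0.657, Cd209d, a lectin of macrophages, at 23.1 against at most 6.8 FPKM, and Apoe, a lipid carrier, at 2440 against at most 804 FPKM. Rn7s2 ranked 4th in tumour 3, at 50.3 against at most 10.8 FPKM. The largest of tumour 2 was Rn7s1, at 49.7 against at most 3.5 FPKM. Scarna10 (1.3 against at most 0.378 FPKM) and Rpph1 (3.46 against at most 1.47 FPKM) ranked 3rd and 4th there. The macrophage elastase Mmp12 ranked 6th in tumour 2, at 112 FPKM against 3.45 to 63.4 FPKM in the others.

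Pembrolizumab, another antibody to human PD-1, was given alone at 10 mg/kg to 3 tumours of the same experiment. Serplulimab against pembrolizumab gave 0 calls of 14914 genes (0.0%), with 2111 genes at an unadjusted p under 0.05 (733 higher and 1378 lower) and 0.322 as the smallest limma adjusted p. This comparison and the one with vehicle share the serplulimab tumours, so their values are set side by side. Cd8a stood at 0.823, 1.56 and 1.06 FPKM in the pembrolizumab tumours, all inside the range of the serplulimab tumours (0.0909 to 11.9 FPKM). Gzmb stood at 18.2, 68 and 84.3 FPKM and Cxcl9 at 43.4, 79.7 and 48.6 FPKM, inside it as well. Acta1 stood at 0.147, 0.326 and 0.502 FPKM, as low as in the vehicle tumours. The T cell list's median log2 difference was -0.82 against vehicle and 0.1 against pembrolizumab. Without tumour 2 the comparison with pembrolizumab gave 1997 calls (595 higher and 1402 lower).

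T2106 compared serplulimab with vehicle at the same dose in another set of 3 and 3 tumours, normalised apart, and is set beside T2215 without a test between them. It too gave 0 calls, of 15070 genes (0.0%), with 1280 at an unadjusted p under 0.05 (414 higher and 866 lower) and 0.292 as the smallest limma adjusted p. With library weights limma called 3100 genes there (721 higher and 2379 lower). The cytotoxic list's median log2 difference was 1.02 there and -0.63 in T2215. Gzmb stood at 64.8, 32.8 and 52.7 FPKM with vehicle and at 91.1, 109 and 112 FPKM with serplulimab in T2106, without overlap. The share of all T2106 genes that separate in this way was not counted. Cd8a stood at 5.84, 3 and 6.08 FPKM against 5.86, 2.46 and 3.3 FPKM. The interferon gamma list's median was 0.44 in T2106 and -0.99 in T2215. No T2106 serplulimab tumour stood out in muscle genes. The muscle list's score there was 2.31, 2.64 and 2.4 with vehicle and 2.57, 2.38 and 2.32 with serplulimab. In those serplulimab tumours Acta1 lay at 0.0184 to 0.0769 FPKM and Ckm at 0.135 to 0.693 FPKM.

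**Figure D5:**
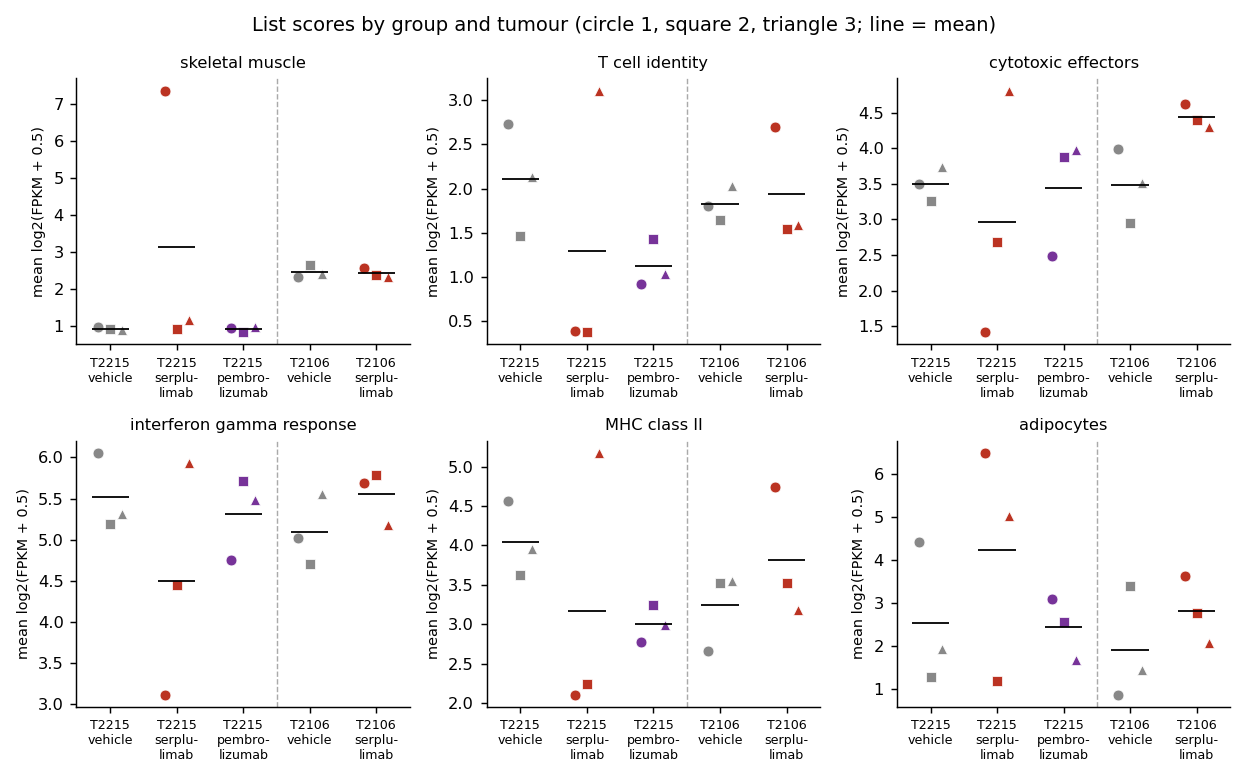
Scores of 6 gene lists (y axes, mean log2(FPKM + 0.5) of the tested members) in single tumours of T2215 and, right of the dashed line, T2106, with a bar at each group mean. The T2215 serplulimab tumours spread wider than the pembrolizumab tumours or the T2106 serplulimab tumours in all 6 lists, and levels are not comparable across the dashed line because the tables were normalised apart and their tested members differ.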

How the data were processed

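Bulk RNA of whole tumours was extracted with Qiagen RNeasy kits and sequenced in read pairs on an MGISEQ-2000RS, per the labels' protocols. The authors deposited log2 FPKM values for 47729 mouse genes in 1 table per experiment. Per the submitters' processing notes, STAR, Bowtie, Trimmomatic and FastQC were used with mm10, hg19 and GRCh37, with no version or role stated, and the program behind the FPKM remains unknown, as not given in the sources used here. Read depth is unknown, so no counting interval is given.

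The deposited log2 values were raised to FPKM, and log2(FPKM + 0.5) was tested, which understates changes of genes near 0.5 FPKM. Genes at 0.5 FPKM or more in at least 3 libraries of a table entered limma 3.58.1 under R 4.3.3 (lmFit and eBayes with trend), with all groups of that table in the fit, Benjamini-Hochberg adjustment over all genes and a threshold of 0.05. The limma step was tested on simulated data. The members and the 33 gene lists (508 genes, 507 matched, 445 tested) were chosen with earlier results of these data known. Named genes were the 10 with the smallest p among non-overlapping genes in each direction, the 10 largest excesses of each tumour, up to 3 members of highest mean per list role, the PD-1 pathway list, a panel of immune genes and the muscle list. Further list members, such as Gbp5, Zap70, Gbp9, Lef1, Arg1, Erap1, Ccl21a, Xcl1 and Tnfrsf14, and the families by name were chosen after their values were seen. The p and excess rankings leave out Gm models with a number, names ending Rik and names starting AC or AL with digits. Pseudogenes ending -ps and antigen receptor V, D and J segments are left out as well. Coordinates are GENCODE M21 (GRCm38) and promoters RefSeq GRCm38.p6. Transcript lengths are the longest GENCODE transcript per gene. The alternatives were other pseudocounts, filters, scalings, libraries, weights, a muscle covariate, a replicate block and leaving out each tumour.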

Additional observations from a re-analysis of the deposited data

How the results depend on the processing

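Read depth is unknown, each group holds 3 tumours, and only spread between tumours is measured. The count of 0 calls against vehicle held under the other pseudocounts, filters, scalings, library subset, weights and covariate. Leaving out 1 tumour gave 0 to 1395 calls, 1395 only without serplulimab tumour 2, where centring left 514 and length centring 126. Against pembrolizumab it gave 0 to 1997 calls, again highest without serplulimab tumour 2, and no filter on low values gave 2. In T2106 no filter gave 2 calls, the muscle covariate 2 and library weights 3100. A replicate block gave 0 calls against vehicle, with 1622 genes at an unadjusted p under 0.05. Deviations of same-numbered tumours correlated at r 0.22, 0.141 and -0.061, and those of differently numbered ones at -0.448 to 0.454. No pairing by number is evident, and with 3 tumours a group these values cannot exclude it. Only the 6 libraries left 347 genes at an unadjusted p under 0.05, and library weights 658.

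Genes with all serplulimab tumours above numbered 736 after centring, 182 after rescaling outside muscle and 517 after length centring, and 514 to 1769 when a tumour was left out, which drops 1 of the conditions. Genes below numbered 419, 1716 and 520, and 1390 to 4085. Of 561 list medians under alternatives, 10 moved by more than the spread between tumours. Hypoxia was 0.49 centred, 0.28 rescaled, 0.25 weighted and 0.06 to 0.75 with a tumour left out, and neutrophils 0.06 with the covariate. With a tumour left out, the TIGIT pathway ranged from -0.07 to 0.17, B and plasma cells from -0.66 to 0.16 and type I interferon from -0.41 to 0.26. Of 781 gene values, 24 passed the threshold, all without serplulimab tumour 2, and 10 changed sign. With the muscle covariate, by its construction, Acta1 was -0.55, Ckm -0.5, Tnnt3 -0.3, Atp2a1 -0.54 and Pvalb -0.27. With a tumour left out, Ckm ranged from -0.05 to 6.27, Atp2a1 from -0.19 to 5.5, Pvalb from -0.07 to 5.68, Gzmb from -2.31 to 0.02 and Ifng from -1.79 to 0.1, each turning without serplulimab tumour 1. The cause of the other changes was not tested.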

Other observations

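A few rows went from near 0 to large FPKM from tumour to tumour. They were chosen after their values were seen. Rps12, a ribosomal protein gene, stood at 835, 440 and 372 FPKM in vehicle tumours 1 to 3 and at 611, 681 and 0.000173 FPKM in serplulimab tumours 1 to 3. The pseudogene Rpl35a-ps4 stood at 2090 FPKM in serplulimab tumour 3 and at 0.0311 to 0.396 FPKM in the other 5 tumours. Gm10925 stood at 3150 to 5420 FPKM in 5 tumours and at 0.124 FPKM in serplulimab tumour 3, whereas Gm29216 stood at 7110 FPKM there and at 0.000289 FPKM in vehicle tumour 1. Gm10243 reached 813 FPKM in vehicle tumour 3 only, and Rpl35a-ps6 reached 410 FPKM in vehicle tumour 1 only. Pseudogenes and ribosomal protein genes share sequence, and the sources used here do not say how their reads were assigned.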
